A study of Mus musculus with 34 samples.

Results

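Dazl, Ddx4, Mael, Stk31, Tex19.1, Sycp1, Sycp3, Tdrd1, Tdrd9 and Asz1 are germline genes of the mouse. They were taken by their symbols from a table of 23366 genes measured by RNA-seq in J1, a line of mouse embryonic stem cells (mESCs), and all 10 were found there. The cells were grown in serum medium on gelatin without the cytokine LIF, either with nothing added (serum/-LIF, 2 libraries) or with 0.5 mg/ml purified Royalactin, a honeybee royal jelly protein (serum/-LIF + Royalactin, 2 libraries). All of the libraries come from the one line at the labelled passage 40, were depleted of ribosomal RNA, and are described as at least biological duplicates, a statement that does not say how the cultures were separated. P-values therefore measure only the spread between these libraries. The passage given in the study's text differs from the label. DNA methylation was not measured in these libraries, and the 30 ATAC-seq samples were not analysed here.

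Germline genes of this kind are transcribed in developing germ cells and kept off in most other cells. Many have promoters rich in CpG, which are methylated on the DNA by Dnmt3a, Dnmt3b and Dnmt3l when the embryo implants, kept methylated by Dnmt1 with Uhrf1, and cleared again in primordial germ cells. A variant Polycomb complex, PRC1.6, which is brought to DNA by E2F6 through its core site and by MGA with MAX through an E-box, holds many of the same genes off in embryonic stem cells. The proteins serve germ cells in 3 ways: Dazl and Ddx4 bind and unwind RNA, Mael, Tdrd1, Tdrd9 and Asz1 belong to the piRNA pathway that silences transposons, and Sycp1 and Sycp3 build the synaptonemal complex that joins homologous chromosomes in meiosis. Tex19.1 restrains retrotransposons in germ cells and placenta, and Stk31 is a testis protein with a tudor domain and a kinase domain.

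The promoters of these genes were read from RefSeq windows that run from 250 bases before to 50 bases after a transcript start (build GRCm38.p6), where the 10 genes had 13 windows. The 250 bases before the start are shown for 4 genes, with each CpG in capitals, because the first 3 have the widest differences between conditions among the genes that could be tested and the last was not detected. They are written 5′ to 3′ on the strand of the gene, Stk31 at chr6:49395289-49395538 (plus strand, the more upstream of 2 windows), Tex19.1 at chr11:121145893-121146142 (plus), Sycp3 at chr10:88459337-88459586 (plus) and Asz1 at chr6:18109062-18109311 (minus).
Stk31: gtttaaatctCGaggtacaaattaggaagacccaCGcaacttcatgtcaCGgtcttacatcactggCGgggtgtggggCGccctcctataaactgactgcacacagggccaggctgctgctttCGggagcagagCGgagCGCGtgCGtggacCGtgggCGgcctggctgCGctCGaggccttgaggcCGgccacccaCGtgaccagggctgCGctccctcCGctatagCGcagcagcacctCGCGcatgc
Tex19.1: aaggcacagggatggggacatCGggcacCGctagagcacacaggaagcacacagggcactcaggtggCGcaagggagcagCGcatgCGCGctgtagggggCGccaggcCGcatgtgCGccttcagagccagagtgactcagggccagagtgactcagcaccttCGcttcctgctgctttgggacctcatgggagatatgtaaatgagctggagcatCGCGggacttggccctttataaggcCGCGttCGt
Sycp3: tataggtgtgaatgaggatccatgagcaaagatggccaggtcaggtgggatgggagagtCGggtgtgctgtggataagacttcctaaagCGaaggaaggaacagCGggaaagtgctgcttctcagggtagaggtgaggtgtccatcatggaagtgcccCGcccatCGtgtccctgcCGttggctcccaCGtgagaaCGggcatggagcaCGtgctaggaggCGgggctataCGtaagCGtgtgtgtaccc
Asz1: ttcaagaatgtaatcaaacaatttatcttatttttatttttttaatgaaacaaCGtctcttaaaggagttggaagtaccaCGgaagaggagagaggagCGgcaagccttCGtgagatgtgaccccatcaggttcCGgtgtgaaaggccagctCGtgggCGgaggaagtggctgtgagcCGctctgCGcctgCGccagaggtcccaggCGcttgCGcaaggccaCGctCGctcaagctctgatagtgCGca

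The windows were richer in CpG than most. The median was 21 CpG per window of 300 bases for the germline genes, with a range of 3 to 38, and 7 for all 32851 windows, whose quartiles were 3 and 20. Ddx4 had the most, at 38 CpG, followed by Stk31 with 29 and 28 in its 2 windows and Dazl with 28. Tdrd9, with 10, was the lowest gene apart from the poorest of the 3 Tdrd1 windows, which had 3.

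**Figure D1:**
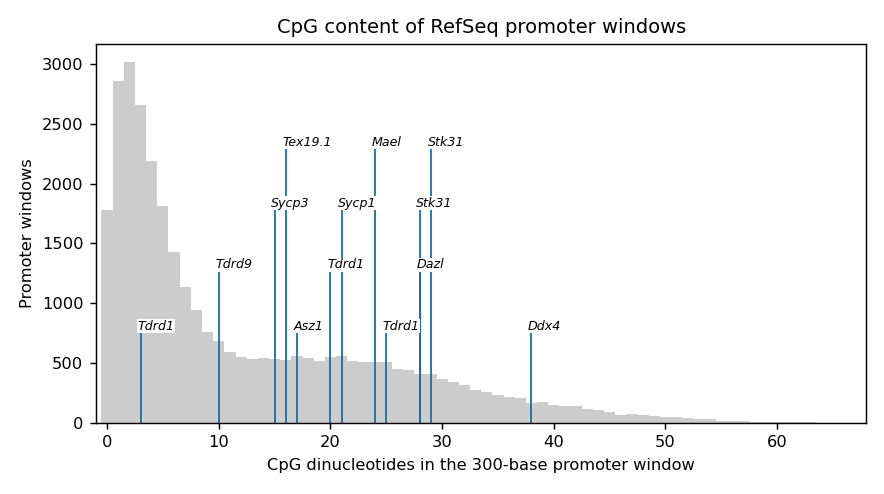
CpG dinucleotides per 300-base RefSeq promoter window (x axis, count) against the number of windows (y axis). Grey bars are all 32851 windows and each blue line is 1 of the 13 windows of the germline genes, which lie at 10 or more apart from 1 Tdrd1 window at 3.

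An E-box with the letters CACGTG, which reads the same on both strands, was found in a window of 7 of the 10 genes (Ddx4, Mael, Stk31, Sycp1, Sycp3, Tdrd1 and Tdrd9), in 9 of the 13 windows. It occurred in 7.15% of all windows and in 10.9% of the 14281 windows with 10 or more CpG. The 2 Stk31 windows overlap and share the same E-box, as do 2 Tdrd1 windows, so these sites enter the 9 windows more than once. The E2F6 core, searched as TCCCGC and its reverse complement GCGGGA, was found in 5 of the 10 genes (Ddx4, Mael, Tex19.1, Sycp1 and Sycp3) and 5 of the 13 windows, against 20.0% of all windows and 40.3% of the CpG-richer ones. The letters of the 2 motifs do not overlap one another in these windows. In the sequences above, counted back from the start site, the E-box of Stk31 begins at -55, those of Sycp3 at -64 and -43 with the core at -147, and the core of Tex19.1 at -33. Neither motif was present in the Dazl and Asz1 windows, which says only that these letters are not there. Matches are descriptions of the sequence, and binding was not measured.

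Values are DESeq-normalized counts, that is reads on a gene scaled for the depth of the library. Between 14737796 and 17597818 reads fell on genes per library, of which 46.6% and 21.6% in the serum/-LIF libraries and 38.4% and 9.08% in the Royalactin libraries came from the ribosomal RNA precursor Rn45s. Without it 7878527 to 15999458 reads were left, the fewest in serum/-LIF replicate 1 and the most in Royalactin replicate 2, so that 1 read was worth 1.34 and 0.688 normalized counts in them. In bulk RNA, more cells that transcribe a gene and more RNA of it per cell cannot be told apart. All 8 embryonic stem cell markers examined were detected in all libraries.

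Of the 10 germline genes, 9 had reads and 8 had a mean of at least 10 normalized counts and were tested. None passed 0.05 in the limma fit after Benjamini-Hochberg adjustment across the 12993 tested genes, of which 0.493% passed, and edgeR and DESeq2 on the recovered reads also passed none. At an unadjusted p under 0.05, 3 of the 8 passed, against 9.34% of all tested genes. With the added demand of a 2-fold difference, the rule the study's methods use, Stk31 and Tex19.1 (2 of 8) were higher with Royalactin, against 3.52% of all tested genes, and Sycp3 (1 of 8) was lower, against 3.61%. Both Royalactin libraries lay above both serum/-LIF libraries for Dazl, Stk31 and Tex19.1 (3 of 8, against 19.7% of all tested genes) and below both for Ddx4 and Sycp3 (2 of 8, against 18.9%). The germline genes did not move in one direction, with 3 fitted differences above 0 and 5 below, and a median of -0.38 on the log2 scale against -0.01 for all tested genes. The sign of this median rested on serum/-LIF replicate 2, without which it was 0.25. With each of the other libraries left out it ran from -0.45 to -0.23. An exact permutation test of 2 libraries against 2 cannot go below a two-sided p of 0.333.

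**Figure D2:**
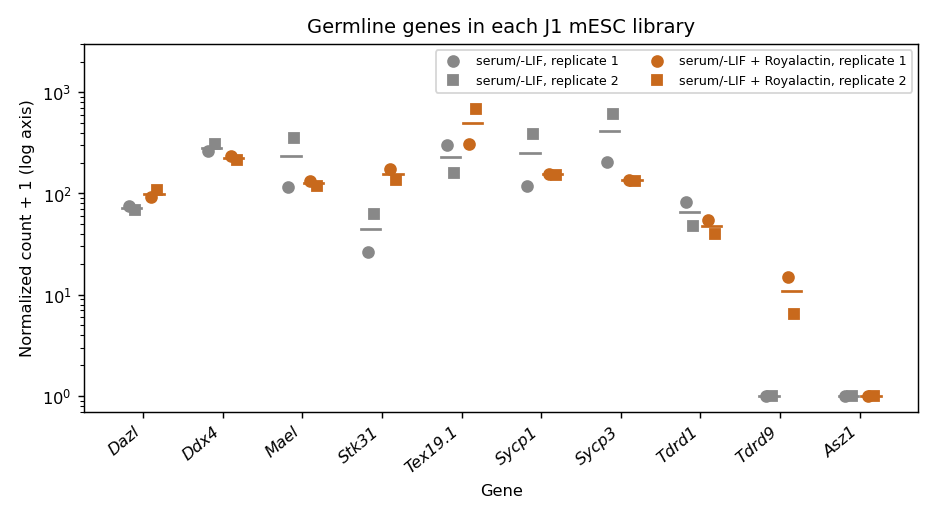
Normalized count + 1 of each germline gene (y axis, log scale) in the serum/-LIF and serum/-LIF + Royalactin libraries, 1 point per library, with a short line at the mean of each condition (n = 2). Stk31 lay between 25.4 and 61.1 without Royalactin and at 136 and 174 with it, Sycp3 lay lower with Royalactin, and Asz1 was at 0 throughout.

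Stk31 showed the widest difference. It had 25.4 and 61.1 normalized counts in serum/-LIF and 174 and 136 in serum/-LIF + Royalactin, from 19, 59, 173 and 197 reads. The conditions did not overlap, and each Royalactin library held more than 2 times the normalized count of either serum/-LIF library. The mean was 43.2 ± 25.2 (SD, n = 2) without and 155 ± 27.2 (SD, n = 2) with Royalactin. On the log2(normalized count + 1) scale the limma difference was 1.93 (SE 0.64, 95% interval 0.55 to 3.31), with an adjusted p of 0.306. It stayed above 0 with each library left out, from 1.32 without serum/-LIF replicate 1 to 2.55 without serum/-LIF replicate 2. The gene missed the 2-fold rule, on its p, with either Royalactin library left out. It lies at chr6:49345603-49419500 on the plus strand (this and the positions below are those of GENCODE for mm9, the build of the alignment). None of its 75-base exon tiles matched a second locus when 2 mismatches were allowed.

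Tex19.1 (chr11:121007457-121009633, plus strand) had 298 and 159 normalized counts in serum/-LIF and 306 and 679 in serum/-LIF + Royalactin. The Royalactin libraries were the higher pair, but replicate 1 stood only just over the higher of the serum/-LIF libraries. The mean was 229 ± 98.2 (SD, n = 2) without and 493 ± 264 (SD, n = 2) with Royalactin. The limma difference was 1.06 on the log2 scale (SE 0.46, 95% interval 0.06 to 2.06, adjusted p = 0.499). It rested on single libraries, being 0.49 without Royalactin replicate 2 and 0.61 without serum/-LIF replicate 2, and it missed the 2-fold rule in both of these cases. Without serum/-LIF replicate 1 and Royalactin replicate 1 it was 1.51 and 1.63. Of its exon tiles 2.89% (5 of 173) also mapped elsewhere, and the related gene Tex19.2 had 4.01 and 40.4 normalized counts without and 4.02 and 31.0 with Royalactin.

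Dazl (chr17:50418719-50432924, minus strand), the RNA-binding protein that controls translation in germ cells, had 73.6 and 67.3 normalized counts in serum/-LIF and 90.5 and 107 in serum/-LIF + Royalactin. Its libraries agreed closely within each condition and did not overlap between them. The limma difference of 0.48 (SE 0.58, 95% interval -0.77 to 1.72, adjusted p = 0.851) was smaller than its standard error. Ddx4 (chr13:113388541-113442518, minus strand), the mouse Vasa RNA helicase of germ granules, had 259 and 307 normalized counts in serum/-LIF and 235 and 212 in serum/-LIF + Royalactin. The Royalactin libraries were the lower pair by a small margin, with a limma difference of -0.34 (SE 0.40, 95% interval -1.19 to 0.52, adjusted p = 0.845). Both genes kept the sign of their difference with each library left out.

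Sycp3 (chr10:87922314-87935981, plus strand), a protein of the lateral elements of the synaptonemal complex, had 203 and 615 normalized counts in serum/-LIF and 136 and 132 in serum/-LIF + Royalactin. The Royalactin libraries were alike and below both others, while serum/-LIF replicate 2 stood far above replicate 1. The mean was 409 ± 291 (SD, n = 2) without and 134 ± 2.56 (SD, n = 2) with Royalactin. The limma difference was -1.39 (SE 0.51, 95% interval -2.50 to -0.29, adjusted p = 0.38). Without serum/-LIF replicate 2 it was -0.60, and without replicate 1 it was -2.19, the one library whose absence left Sycp3 within the 2-fold rule, together with Mael and Sycp1. In edgeR without the filter on low values Sycp3 passed, with a log2 difference of -1.59 and an adjusted p of 0.0268.

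The exons of Sycp3 overlap those of Chpt1, a phospholipid synthesis gene on the opposite strand, over 660 bases or 52.2% of their length, and whether reads were counted by strand is not stated. Chpt1 had 74.9 and 399.5 normalized counts in serum/-LIF and 142 and 84.0 in serum/-LIF + Royalactin, so it too was highest in serum/-LIF replicate 2. How its reads were assigned was not tested, and the Sycp3 values are uncertain to that extent. No other gene of the 10 shares exon bases with another gene.

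Sycp1 (chr3:102622422-102740023, minus strand), the transverse filament protein of the same complex, had 118 and 385 normalized counts in serum/-LIF and 156 and 151 in serum/-LIF + Royalactin. The Royalactin libraries fell between the serum/-LIF libraries. Its limma difference of -0.47 (SE 0.54, 95% interval -1.64 to 0.70, adjusted p = 0.843) turned to 0.38 without serum/-LIF replicate 2. Of its exon tiles 6.50% (8 of 123) also mapped elsewhere.

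Mael (chr1:168131516-168168875, minus strand), the mouse Maelstrom of the piRNA pathway, had 115 and 355 normalized counts in serum/-LIF and 132 and 118 in serum/-LIF + Royalactin, the same layout as Sycp1. Its limma difference of -0.69 (SE 0.55, 95% interval -1.88 to 0.49, adjusted p = 0.755) turned to 0.11 without serum/-LIF replicate 2. Tdrd1 (chr19:56900699-56944502, plus strand), a tudor-domain scaffold that binds PIWI proteins, had 81.6 and 46.6 normalized counts in serum/-LIF and 53.3 and 39.2 in serum/-LIF + Royalactin. The conditions overlapped and all libraries were low, with a difference of -0.42 (SE 0.71, 95% interval -1.96 to 1.11, adjusted p = 0.899) that came to -0.03 without serum/-LIF replicate 1.

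Tdrd9 (chr12:113209770-113307065, plus strand), a tudor-domain RNA helicase of the piRNA pathway, had no reads in either serum/-LIF library and 14.1 and 5.51 normalized counts (14 and 8 reads) in serum/-LIF + Royalactin. It was too low to be tested in the main fit. With no filter it entered at 0 in serum/-LIF, and its unadjusted p was 0.0321 in limma and 0.142 in edgeR. Set against a floor of 3 reads in each serum/-LIF library, a mean of 3.56 normalized counts, the Royalactin mean was 2.75 times as high. Only the serum/-LIF side is bounded in this ratio, and Royalactin replicate 2 alone stood at 5.51. Asz1 (chr6:18000964-18059061, minus strand), which anchors piRNA proteins at mitochondria, had no reads in any library, which allows up to 4.01 and 3.11 normalized counts in the serum/-LIF libraries and up to 3.02 and 2.07 in the Royalactin libraries. These floors cover counting error only.

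**Figure D3:**
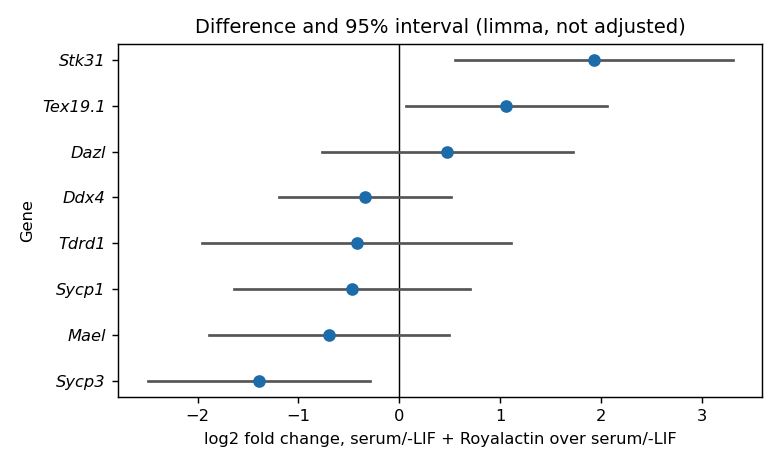
Fitted log2 fold change of serum/-LIF + Royalactin over serum/-LIF (x axis) for the 8 tested germline genes (y axis), with 95% intervals from limma that are not adjusted for the number of genes. The intervals of Stk31 and Tex19.1 lie above 0, that of Sycp3 below 0, and the other 5 include 0.

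Levels can be compared between genes only per length of exons. Per kilobase the mean normalized count in serum/-LIF ran in the order Sycp3 (324), Mael (152), Tex19.1 (122), Ddx4 (99.5), Sycp1 (72.5), Dazl (23.4), Stk31 (13.4) and Tdrd1 (11.8), around a median of 66.8 over 12279 tested genes with a length. Neighbours from Sycp3 to Sycp1 had library values that overlapped, as did Stk31 and Tdrd1, whereas Sycp1 and Dazl, and Dazl and Stk31, did not overlap. In serum/-LIF + Royalactin the order of the level per kilobase was Tex19.1 (263), Sycp3 (106), Mael (80.7), Ddx4 (78.5), Stk31 (47.8), Sycp1 (44.3), Dazl (32.7), Tdrd1 (8.50) and Tdrd9 (2.04), around a median of 66.4. There only Mael with Ddx4, and Stk31 with Sycp1, overlapped among neighbours. Several of these genes were thus at mid-range levels in both conditions, Mael above 69.0% and 54.6% of those tested genes and Ddx4 above 59.7% and 53.9%, while Stk31 went from above 19.3% to above 42.4%. Spermatid markers were at 0 in all libraries (7 of 7).

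The serum/-LIF libraries differed widely from each other for part of these genes. Replicate 2 over replicate 1 on the log2 scale came to 1.70 for Sycp1, 1.62 for Mael, 1.59 for Sycp3 and 1.23 for Stk31, where the median absolute difference over all tested genes was 0.57. A difference as large in either direction was found for 11.8%, 12.9%, 13.2% and 20.0% of all tested genes, in that order. Thus 4 of the 8 germline genes (50.0%) were at least 2-fold higher in replicate 2, against 11.1% of all tested genes, and none was 2-fold higher in replicate 1, against 15.9%. Dazl (-0.13), Ddx4 (0.24), Tdrd1 (-0.80) and Tex19.1 (-0.90) did not follow. Between the Royalactin replicates only Tex19.1 differed by 2-fold, at 1.15, and the median over all tested genes was 0.39.

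**Figure D4:**
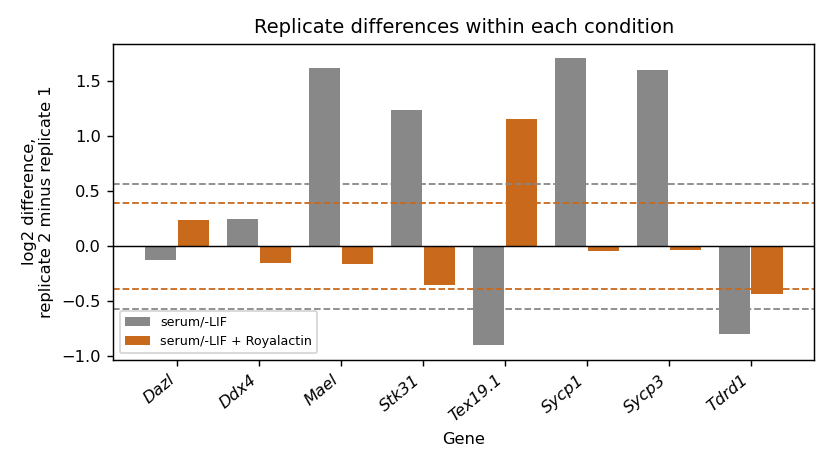
Log2 difference of replicate 2 minus replicate 1 (y axis) within serum/-LIF and within serum/-LIF + Royalactin for the 8 tested germline genes (x axis). In serum/-LIF the values for Mael, Stk31, Sycp1 and Sycp3 lie above 1, and with Royalactin only Tex19.1 does.

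Among other germline genes 13 of 36 tested (36.1%) were at least 2-fold higher in serum/-LIF replicate 2, against 11.1% of all tested genes. In replicate 1 it was 7 (19.4%), near the 15.9% of all tested genes. These 36 include Piwil4, Gtsf1 and Mageb4, which reached the filter through 1 condition alone. The meiotic genes (14 tested) gave 7 and 2, the piRNA genes (13 tested) 3 and 3, and those known for methylated promoters (9 tested) 3 and 2. Markers of other cells were not all low beside the germline genes. The two-cell-like cell marker Zscan4d had means of 37.1 and 30.1 normalized counts per kilobase without and with Royalactin, where Dazl had 23.4 and 32.7. The summed normalized counts of 6 two-cell-like cell markers, of which Tcstv1 and Tcstv3 were at 0, were 100.3 and 223 in serum/-LIF and 85.5 and 145 with Royalactin. This sum was highest in serum/-LIF replicate 2, but the single markers differed. Of the 4 tested, 2 were at least 2-fold higher in serum/-LIF replicate 2 and 1 (Zscan4f) in replicate 1. The summed counts of 6 gonadal somatic cell markers, 2 of them at 0, were 41.5 and 15.5 without and 51.3 and 59.9 with Royalactin, and 78.6% of this came from Star. Trophoblast markers (3 of 6 at 0) summed to 21.7 to 39.2, and fibroblast markers (3 of 10 at 0) to 69.5 to 164. The part of other cells in the germline gene values was not tested.

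Other genes of the same pathways were read from lists. Over 56 of them, 36 tested, none passed an adjusted p of 0.05, against 0.493% of all tested genes. Of the 36, Piwil4, Gtsf1 and Mageb4 reached the filter on low values through one condition alone, having a mean under 10 in the other, and are not counted further. By the 2-fold rule 6 of the other 33 were higher and 1 was lower with Royalactin, against 3.52% and 3.61% of all tested genes, and their median log2 difference was 0.28. In the piRNA pathway (11 such genes) Tdrd12 was higher and Tdrkh was lower by this rule, with a median of 0.26. Tdrd12 had 226 and 784 normalized counts in serum/-LIF and 1008 and 1249 with Royalactin, a log2 difference of 1.41 (adjusted p = 0.306). Piwil4, the PIWI protein of fetal male germ cells, had no reads in serum/-LIF and 37.2 and 45.4 normalized counts with Royalactin. The mean with Royalactin was 11.6 times a floor of 3 reads per library, which bounds the serum/-LIF side only. Tdrkh, a tudor protein of mitochondria, had 69.5 and 118 normalized counts in serum/-LIF and 0 and 40.6 with Royalactin, a log2 difference of -3.83 (adjusted p = 0.395) that holds a library at 0.

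Of other genes of meiotic chromosomes, 14 of 23 were tested and 21 were in the table. Hormad1, which marks unsynapsed chromosome axes, and Stag3, a meiotic cohesin, were higher by the 2-fold rule. Their log2 differences were 1.28 and 1.23 (limma, adjusted p = 0.378 and 0.349). Hormad1 had 120 and 339 normalized counts in serum/-LIF and 476 and 509 with Royalactin. No gene of this list was lower by the 2-fold rule, and the median was 0.04. The lowest difference was -1.27 for Mei4, a gene for meiotic break formation. For a list of other germline genes known for methylated promoters (9 of 17 tested) the median log2 difference was 1.25 over the 8 without Mageb4, and 3 of these were higher by the 2-fold rule. D1Pas1, an X-to-autosome retrocopy of a Ddx3 helicase used in spermatogenesis, had 34.8 and 26.9 normalized counts in serum/-LIF and 163 and 157 with Royalactin, a log2 difference of 2.35 (adjusted p = 0.158). Tex14, a protein of the bridges between germ cells, had 76.2 and 125 without and 574 and 304 with Royalactin (2.08, adjusted p = 0.0939), and the difference of Rpl10l was 1.42. The lowest was Taf7l, at -0.71, with 9.36 and 198 normalized counts in serum/-LIF and 21.1 and 33.7 with Royalactin. These lists were described by count and median, and no difference between them and the first 10 genes was tested. Exon tiles were mapped for the first 10 genes only. Whether reads of other loci entered the values of D1Pas1 and Rpl10l, each of 1 exon, was not tested.

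**Figure D5:**
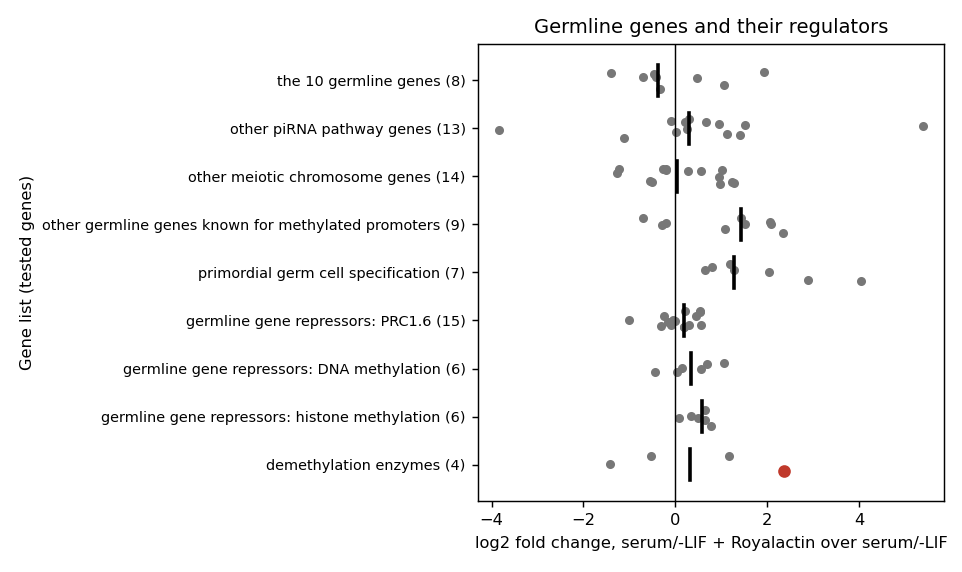
Log2 fold change of serum/-LIF + Royalactin over serum/-LIF (x axis) for each tested gene of each list (y axis, number tested in brackets). Tet2, past an adjusted p of 0.05, is in red. A black bar marks the median of all tested genes of a list. It includes genes that reached the filter through 1 condition alone, which some medians in the text leave out. Points of the 10 germline genes run from -1.39 to 1.93, those of Piwil4 (5.40) and Prdm14 (4.04) come from genes under a mean of 10 without Royalactin, and the repressor lists lie between -0.998 and 1.05.

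The genes whose products silence germline promoters were expressed in both conditions. Of the 6 DNA methylation genes none passed an adjusted p of 0.05, against 0.493% of all tested genes. Dnmt3l, the cofactor of the de novo methyltransferases, had 1269 and 1420 normalized counts in serum/-LIF and 2610 and 2967 in serum/-LIF + Royalactin, a log2 difference of 1.05 (SE 0.29, adjusted p = 0.18), and passed the 2-fold rule. The methyltransferase genes Dnmt3a and Dnmt3b had log2 differences of 0.14 (adjusted p = 0.921) and -0.45 (adjusted p = 0.735). For the maintenance genes Dnmt1 and Uhrf1 they were 0.68 (adjusted p = 0.518) and 0.55 (adjusted p = 0.634), and for the remodeller Hells 0.03 (adjusted p = 0.989). All of the 15 genes of PRC1.6 were tested and none passed either rule. Of all tested genes 0.493% passed with adjustment, and 3.52% were higher and 3.61% lower by the 2-fold rule. None in a list of this size is near those shares. The median was 0.18, with a range from -0.998 for Yaf2 (adjusted p = 0.528) to 0.55 for L3mbtl2 (adjusted p = 0.685). Yaf2, with an unadjusted limma p of 0.0478, fell just short of a 2-fold difference. The 6 histone methylation genes ranged from 0.08 for Kdm5c to 0.77 for Trim28 (adjusted p = 0.527), a corepressor that recruits histone methylation.

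Among the demethylation genes Tet2, which oxidises methylcytosine, rose with Royalactin and was the one gene of the germline and regulator lists that passed an adjusted p of 0.05. It had 401 and 420 normalized counts in serum/-LIF and 2461 and 1847 in serum/-LIF + Royalactin, a log2 difference of 2.37 (SE 0.31, adjusted p = 0.00333). The adjusted p was 0.213 without the trend, 0.179 without serum/-LIF replicate 1, and 0.313 and 0.642 without Royalactin replicates 1 and 2, with a difference of 2.17 to 2.58 when a library was left out. Tet1 had 4229 and 2944 normalized counts without and 10219 and 6179 with Royalactin, with a difference of 1.17 (adjusted p = 0.21) that passed the 2-fold rule. Tet3 (-0.53, adjusted p = 0.834) and the glycosylase Tdg (-1.43, adjusted p = 0.845) were low, and Tdg, with 3 to 57 reads, reached the filter through serum/-LIF alone. Of the 8 primordial germ cell specification genes 7 were tested, and Nanos3, with a mean of 9.98 normalized counts in each condition, was not. Prdm14, which also serves naive embryonic stem cells, had 13.4 and 1.04 normalized counts without and 63.4 and 123 with Royalactin, and reached the filter through Royalactin alone. The other 6 ranged from 0.64 for Dppa3 to 2.90 for Dnd1, with a median of 1.23, where 6414 of the 12993 tested genes were above 0. By the 2-fold rule 3 of the 6 were higher, against 3.52% of all tested genes. None passed with adjustment, against 0.493% of all tested genes. Dnd1, 1 of the 3 higher by the 2-fold rule, had 66.9 and 2.07 normalized counts (50 and 2 reads) in serum/-LIF. With Royalactin Dnd1 had 86.5 and 131. Its difference thus rested on serum/-LIF replicate 2. Of the 8 embryonic stem cell markers 3 rose with Royalactin (limma, adjusted p under 0.05), Esrrb (2.87), Zfp42 (2.30) and Sox2 (1.52), with adjusted p-values of 0.171, 0.246 and 0.358 without the trend. These calls were also lost without serum/-LIF replicate 1 (0.179, 0.179 and 0.185) and without either Royalactin library, and that of Sox2 without serum/-LIF replicate 2 (0.0805). The Sox2 call also failed in limma with no filter (adjusted p = 0.0786) and with a pseudocount of 0.1 (0.072). It failed in edgeR on the recovered reads as well (0.0529), while Esrrb and Zfp42 passed in these fits. Apart from these 3, the embryonic stem cell markers ran from -0.45 for Tdgf1 (adjusted p = 0.73) to 1.02 for Nanog (adjusted p = 0.219), with Pou5f1 at 0.25. Their part in the germline gene values was not tested.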

How the data were processed

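RNA-seq of the 4 libraries was taken from the table of the authors, who used Tophat for alignment to mm9, HTSeq-count for gene counts and DESeq for normalization. The deposited signal is a normalized count per gene and library. The annotation and strand setting are not given in the sources used here. In each library 100% of values were whole multiples of 1 read to within 0.01 of a read, so reads could be recovered, and edgeR on them called 55 genes. No column was left unmapped.

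Differences were fitted with limma 3.58.1 in R 4.3.3 (eBayes with trend, two-sided tests, adjusted by Benjamini-Hochberg across 12993 genes with a mean of at least 10) on log2(normalized count + 1). This scale understates the change of low genes. The 2-fold rule is an unadjusted p under 0.05 and a fold of 2. The alternatives were pseudocounts of 0.1 and 5, no filter or a mean of at least 50, 2 other scalings, no trend, a replicate block, each library left out, edgeR 4.0.16 and DESeq2 1.42.0. The fits were also run on simulated data drawn without a replicate effect. The outcome is not reported here and is not used as support for the fits.

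Gene positions and exon lengths are those of GENCODE for mm9, and promoters those of RefSeq for GRCm38.p6, with no coordinates carried between builds. Exon tiles of 75 bases were mapped with minimap2 2.31-r1302. The 10 genes and all lists were chosen with earlier results of these data known. Named are the 10 genes, and the DNA methylation and demethylation lists whole. Of other lists except marker lists of other cells, the genes past an adjusted p of 0.05 and the highest and lowest difference are named. Zscan4d, Nanos3 and others in counts of 5 or fewer were named after their values were seen.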

Additional observations from a re-analysis of the deposited data

How the results depend on the processing

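Of 120 refits of the 8 tested germline genes under 15 alternatives, 117 kept the direction and the side of the threshold, 1 passed (Sycp3 in edgeR without the filter, where 1 of 9 tested germline genes and 1.56% of all genes passed) and 2 reversed, with a library left out Mael ranged from -1.50 to 0.11 and Sycp1 from -1.32 to 0.38, both above 0 without serum/-LIF replicate 2. The 2 germline genes higher by the 2-fold rule became 1 with a pseudocount of 0.1 and 1 without the trend, 3 with no filter, which let in Tdrd9, and 0 to 2 with a library left out. The 1 lower became 0 without the trend and 0 to 3 with a library left out. Over all genes the 64 passing an adjusted p of 0.05 became 32 with a pseudocount of 0.1, 34 with no filter, 99 with a mean of at least 50, 0 without the trend (1135 at an unadjusted p under 0.05), 391 with the replicate block, 248 with DESeq2, 261 in edgeR without the filter, and 0 to 60 with a library left out, where 0 was found without serum/-LIF replicate 1 (2518 unadjusted) and without Royalactin replicate 2 (547 unadjusted). The 927 of the 2-fold rule ranged from 519 to 1963 with a library left out. The cause was not tested. The replicate block gave Stk31 an adjusted p of 0.0856, Sycp3 0.0513 and Tex19.1 0.137, and no germline gene passed. Whether the numbers pair the samples is not shown by the labels, and deviations of same-numbered libraries correlated at 0.0851 over 12993 genes. The Rn45s share was higher in replicate 1 (46.6% without and 38.4% with Royalactin) than in replicate 2 (21.6% and 9.08%). Whether the samples are paired was not tested. Leaving out a library leaves 1 in its condition, which is then assumed to vary like the other condition.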
